A study of Homo sapiens with 6 samples.

Results

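The retinal pigment epithelium (RPE) identity genes examined here are 10 genes chosen by name: the regulators MITF, OTX2 and SOX9, the visual cycle genes RPE65, RLBP1, RDH5 and RDH11, the pigment genes PMEL and TYRP1, and the channel gene BEST1. All 10 are listed among the 20461 Ensembl genes of the deposited tables. The RNA came from ARPE-19, an established human RPE cell line, and 2 groups of 3 sequencing libraries each were compared. The control group carried a control lentivirus and the PDZK1 group carried a PDZK1 overexpression lentivirus. Both groups were transduced at a multiplicity of infection of 10, selected with 4 μg/ml puromycin and held in 37.5 mM glucose for 48 h, so the lentiviral vector, the drug and the high glucose are shared by both groups. PDZK1 is a scaffold protein with PDZ domains that holds transporters and receptors at the plasma membrane. The labels do not say whether the 3 libraries of a group came from separate cultures, so p-values measure the spread between these libraries, which may be technical.

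The RPE is the pigmented cell layer behind the photoreceptors. It takes the all-trans retinol that light exposure produces, esterifies it through LRAT, isomerizes it through RPE65, and oxidizes the product with retinol dehydrogenases such as RDH5 and RDH11, while RLBP1 (CRALBP) carries the 11-cis retinoid. MITF, OTX2 and SOX9 are transcription factors that act together on visual cycle, pigment and channel promoters in the RPE, and MITF reads short E-box motifs in the promoters of melanosome genes such as PMEL and TYRP1. ARPE-19 cells are widely used in place of the native tissue, and the first question was which of these genes the libraries contained at all.

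Total counts ran from 27970618 to 32804567 per library. PDZK1 itself, the check of the labels, had 19, 18 and 23 counts in the control libraries and 3020, 2541 and 2828 counts in the PDZK1 libraries. On the second principal component of the tested genes, control replicate 3 lay at -29.99 and the other control libraries at 14.45 and 18.79, and results that depend on that library are given with and without it. PDZK1 replicate 1 stood far from the other 5 libraries in BEST1, described below. PDZK1 libraries were compared with control libraries by edgeR's quasi-likelihood test, and adjusted p-values cover all 13645 tested genes, of which 522 (3.83%) passed an adjusted p under 0.05.

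Among the members, which ranged from no counts to a level above most tested genes, the promoter windows of 4 are shown first. Each is the stretch of 250 bases before the RefSeq transcription start in GRCh38.p14, read 5′ to 3′ on the strand of the gene, with capitals at every match to the motifs named below. All 4 RefSeq starts lie inside the gene as GENCODE draws it, so each window overlaps the annotated gene, and that of TYRP1 lies wholly inside. TYRP1 (chr9:12693135-12693384, plus strand) was the lowest of the members with counts. RPE65 (chr1:68449955-68450204, minus strand) had none, RLBP1 (chr15:89221580-89221829, minus strand) was low, and RDH11 (chr14:67695765-67696014, minus strand) was the highest.
TYRP1: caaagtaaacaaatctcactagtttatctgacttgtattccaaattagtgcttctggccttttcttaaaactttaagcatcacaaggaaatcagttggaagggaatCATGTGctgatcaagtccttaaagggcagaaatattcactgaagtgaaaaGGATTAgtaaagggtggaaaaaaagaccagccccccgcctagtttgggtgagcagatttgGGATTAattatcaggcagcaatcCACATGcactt
RPE65: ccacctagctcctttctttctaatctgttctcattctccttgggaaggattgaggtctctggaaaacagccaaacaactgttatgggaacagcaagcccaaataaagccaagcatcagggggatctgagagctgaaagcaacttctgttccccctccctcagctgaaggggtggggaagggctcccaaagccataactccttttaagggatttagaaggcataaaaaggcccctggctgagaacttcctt
RLBP1: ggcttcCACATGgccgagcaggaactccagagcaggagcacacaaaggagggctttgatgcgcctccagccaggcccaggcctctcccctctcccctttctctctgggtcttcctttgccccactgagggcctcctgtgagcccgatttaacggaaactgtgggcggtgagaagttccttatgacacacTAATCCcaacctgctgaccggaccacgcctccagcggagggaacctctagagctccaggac
RDH11: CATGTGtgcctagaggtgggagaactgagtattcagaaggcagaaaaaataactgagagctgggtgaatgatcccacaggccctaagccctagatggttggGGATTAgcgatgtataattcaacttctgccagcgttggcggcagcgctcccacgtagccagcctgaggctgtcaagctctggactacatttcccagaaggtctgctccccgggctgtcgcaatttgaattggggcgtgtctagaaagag
Matches on both strands were sought to 4 motifs, and the share of 35116 RefSeq promoter windows of the same length that hold each was also counted. The first E-box was CATGTG, found in 9.42% of those windows. The second E-box was CACGTG, found in 6.34%. The OTX core was TAATCC, found in 5.62%. The SOX core was AACAAT, found in 8.98%. The TYRP1 window held 4 matches, of which 2 were the first E-box, starting 144 and 11 bases before the transcription start, and 2 were the OTX core, starting 94 and 34 bases before it. The windows of RLBP1 and RDH11 each held 1 match to the first E-box and 1 to the OTX core. The windows not shown, 3 for MITF, 2 for OTX2 and 1 for RDH5, held 1 match among them, to the first E-box in an OTX2 window, so the windows printed include every one of the 10 with both motifs. The RPE65 window held no match, and none of the windows shown held the second E-box or the SOX core. No 2 matches overlapped. Windows were at hand for 7 of the 10 genes, and BEST1, PMEL and SOX9 had none. These are matches of letters only, and any part of them in the levels of the genes was not tested.

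Of the 10 members, 8 lay at a mean of at least 1 FPKM over the 6 libraries, FPKM being a level per length of transcript and per depth of library. PMEL passed narrowly with a mean of 1.03, and 6 members had at least 1 FPKM in every library. The order by median FPKM was RDH11 (56.1), SOX9 (24.5), OTX2 (22.8), MITF (8.02), RDH5 (4.55), RLBP1 (2.29), BEST1 (1.12), PMEL (1.04), TYRP1 (0.549) and RPE65 (0). RDH11 stood at the 91.1 percentile of the median FPKM of the tested genes, SOX9 at 78.5, OTX2 at 76.8, MITF at 49.0 and TYRP1 at 11.1. The ranges over 6 libraries overlapped between SOX9 and OTX2, between RLBP1 and BEST1 (through PDZK1 replicate 1 alone), between BEST1 and PMEL, and between PMEL and TYRP1, so the order within those pairs is not larger than the spread. They did not overlap at the other steps. In CPM, control replicate 3 was the highest control library for OTX2, MITF, RDH5, SOX9, TYRP1 and RLBP1 and the lowest for RDH11 and BEST1.

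**Figure D1:**
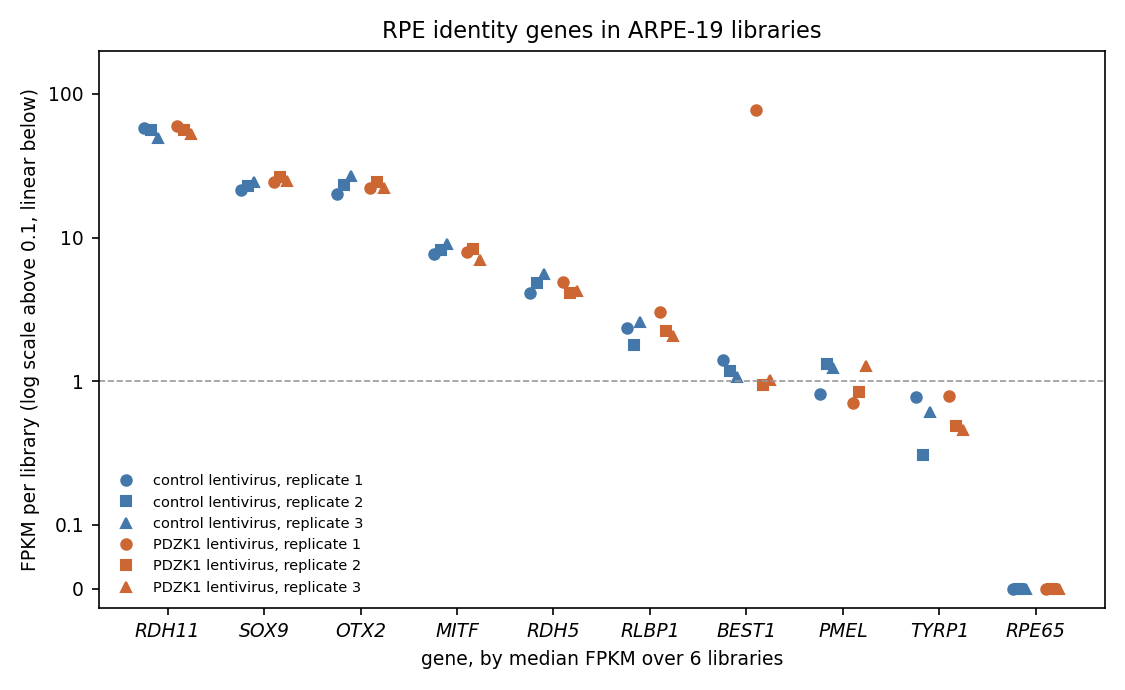
FPKM (vertical axis, log scale above 0.1 and linear below) of the 10 genes in each of 3 control libraries (blue) and 3 PDZK1 libraries (orange), ordered by median, with the dashed line at 1 FPKM. RDH11, SOX9, OTX2, MITF, RDH5 and RLBP1 lie above 1 FPKM in every library, RPE65 is at 0 in all, and the BEST1 value of PDZK1 replicate 1 (77.5 FPKM) stands far above the other 5.

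The regulators were all present. OTX2 (ENSG00000165588, chr14:56799905-56810479, minus strand, GRCh38), the homeodomain factor required for RPE specification, had FPKM of 20.3, 23.2 and 26.9 in the control libraries (replicates in the order 1, 2, 3, here and in what follows) and 22.2, 24.5 and 22.3 in those with PDZK1. The highest and the lowest values were both in control libraries, so the PDZK1 values lay inside the control range. In CPM, which are counts scaled to a common effective library size, OTX2 was 63.6 ± 10.9 in control and 63.8 ± 4.78 in PDZK1 libraries (SD, n = 3 each), a log2 fold change of 0.0052 (SE 0.12, 95% interval -0.29 to 0.30, edgeR adjusted p 0.992).

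MITF (ENSG00000187098, chr3:69739435-69968337, plus strand), the basic helix-loop-helix factor of pigment cells, had FPKM of 7.70, 8.16 and 9.03 in the control and 7.89, 8.30 and 6.97 in the PDZK1 libraries. The groups overlapped, with PDZK1 replicate 3 the lowest. MITF was 42.2 ± 3.92 CPM against 39.4 ± 3.54 CPM, a log2 fold change of -0.10 (SE 0.085, 95% interval -0.29 to 0.091, edgeR adjusted p 0.608). RefSeq lists several starts for this gene (3 windows), and the tables hold 1 value per gene, so its isoforms were not told apart.

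SOX9 (ENSG00000125398, chr17:72121020-72126420, plus strand), the high-mobility-group factor that also marks Müller glia, had 2969, 3013 and 2904 counts in the control and 3347, 3669 and 3349 counts in the PDZK1 libraries. In CPM the values were 91.9, 97.5 and 105 against 104, 112 and 106, and the groups overlapped because control replicate 3 lay above PDZK1 replicate 1. PDZK1 over control, the log2 fold change came to 0.13 (SE 0.053, 95% interval 0.0092 to 0.25), with an unadjusted p of 0.0374 and an edgeR adjusted p of 0.246. SOX9 was the 1 tested member with an unadjusted p under 0.05, a level that 17.5% of all tested genes reached. Without control replicate 3 the log2 fold change was 0.18 and the edgeR adjusted p 0.0421, so this single library decided the side of the threshold. More genes passed in that fit, 875 of 13844 tested genes against 522 of 13645 with all 6 libraries. The tested genes most like SOX9 in their mean-centred log2 CPM were ZNF384 and MCC, with root mean square differences of 0.019 each over 6 libraries, and 3361 of 13644 genes lay within 0.1 of it.

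Of the visual cycle genes, RPE65 (ENSG00000116745, chr1:68428822-68449959, minus strand), the isomerase that defines the differentiated RPE, had 0 counts in all 6 libraries. A count of 0 allows up to 3 counts, which is 0.0915 to 0.109 CPM per library and, over its 2610 annotated exonic bases, 0.035 to 0.0411 FPKM. These limits cover counting error only. RPE65 could not be tested.

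RLBP1 (ENSG00000140522, chr15:89209869-89221751, minus strand), the retinoid carrier, had 122, 95 and 126 counts in the control and 166, 120 and 105 counts in the PDZK1 libraries. The highest value was in PDZK1 replicate 1 and the lowest in control replicate 2. RLBP1 was 3.81 ± 0.746 CPM against 4.05 ± 0.994 CPM, a log2 fold change of 0.092 (95% interval -0.40 to 0.58, edgeR adjusted p 0.878). The estimate changed sign to -0.041 without control replicate 2 and to -0.12 without PDZK1 replicate 1.

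RDH11 (ENSG00000072042, chr14:67676801-67695814, minus strand), a retinol dehydrogenase found in many tissues, had 4862, 4552 and 3430 counts in the control and 4804, 4551 and 4559 counts in the PDZK1 libraries. Control replicate 3 was the lowest of the 6 also in FPKM (49.6), and the other 5 ran up to 60.2 FPKM. RDH11 had a log2 fold change of 0.034 (SE 0.072, 95% interval -0.13 to 0.20) at an edgeR adjusted p of 0.86, and of -0.047 without control replicate 3 (adjusted p 0.563). RDH5 (ENSG00000135437, chr12:55720367-55724705, plus strand), the 11-cis retinol dehydrogenase of the RPE, had 179, 202 and 207 counts in the control and 201, 178 and 170 counts in the PDZK1 libraries. The groups overlapped, and the log2 fold change of -0.20 (SE 0.15, 95% interval -0.53 to 0.13) had an edgeR adjusted p of 0.549. An annotated read-through gene, BLOC1S1-RDH5, shares 2035 exonic bases and the strand with RDH5 and had 341 to 480 counts, so the split of reads between these entries makes the level of RDH5 uncertain. RDH11 shares 346 exonic bases on its own strand with AL049779.1, which had 0 counts in every library.

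The pigment genes were low. PMEL (ENSG00000185664, chr12:55954105-55973317, minus strand), which forms the fibrils of the melanosome, had 61, 96 and 81 counts in the control and 62, 66 and 93 counts in the PDZK1 libraries. Both groups spanned nearly the same range. Its log2 fold change was -0.20 (95% interval -0.79 to 0.38, edgeR adjusted p 0.756). PMEL shares 89 exonic bases with CDK2 on the other strand, which had 909 to 1179 counts, and the strandedness is not given in the sources used here. TYRP1 (ENSG00000107165, chr9:12685439-12710290, plus strand), a melanosomal enzyme, had 41, 30 and 54 counts in the control and 56, 42 and 44 counts in the PDZK1 libraries. The groups overlapped here too. TYRP1 shares 102 exonic bases with LURAP1L-AS1 on the other strand, which was not analysed here. Its log2 fold change was 0.078 (95% interval -0.62 to 0.78, edgeR adjusted p 0.933). For TYRP1 the 2 tables ordered the control libraries differently, with control replicate 1 the highest in FPKM (0.782) and control replicate 3 the highest in counts. The transcript length implied by counts over FPKM was 1608 bases in control replicate 1 against 2222 to 3155 bases in the other 5 libraries, and for SOX9 it was 4234 to 4265 bases in all 6.

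BEST1 (ENSG00000167995, chr11:61949821-61965515, plus strand) encodes bestrophin, the calcium-activated chloride channel of the basolateral RPE membrane, and its table values differed from those of every other member. It had 181, 168 and 124 counts in the control libraries, 143 and 137 in PDZK1 replicates 2 and 3, and 11459 in PDZK1 replicate 1. In CPM, PDZK1 replicate 1 was 79.6 times the median of the other 5 libraries. The log2 fold change over all 6 libraries was 4.55 (SE 2.29, 95% interval -1.70 to 10.8, edgeR adjusted p 0.42), and without PDZK1 replicate 1 it was -0.25 (SE 0.17, 95% interval -0.65 to 0.14, adjusted p 0.58). DESeq2 gave BEST1 no adjusted p. Only 2 of the 13645 tested genes had 1 library at over 10 times every other library and at least 100 counts there, and BEST1 was 1 of them.

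BEST1 shares 1267 exonic bases with FTH1, the ferritin heavy chain gene, which lies on the other strand (chr11:61959718-61967660). FTH1 had 178743, 168915 and 155001 counts in the control and 156925, 170063 and 172706 counts in the PDZK1 libraries. In PDZK1 replicate 1, FTH1 was at 4897 CPM, a difference of -419.9 CPM from the mean of PDZK1 replicates 2 and 3, while BEST1 was 353.3 CPM above their mean. The part of read assignment in the BEST1 value was not tested. BEST1 took 6.81% of the summed counts of both genes in PDZK1 replicate 1 and 0.0793% to 0.101% in the other 5 libraries. The sum was 5539, 5474 and 5622 CPM in the control and 5255, 5194 and 5450 CPM in the PDZK1 libraries, and PDZK1 replicate 1 lay between the other PDZK1 libraries. With the counts summed, a choice made after the values were seen, the sum had a log2 fold change of -0.065 (95% interval -0.15 to 0.020, edgeR adjusted p 0.424), beside -0.098 for FTH1 alone. FTH1 makes up most of the sum in every library, so this is no value for BEST1. Over the other 5 libraries BEST1 lay at 0.940 to 1.41 FPKM.

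**Figure D2:**
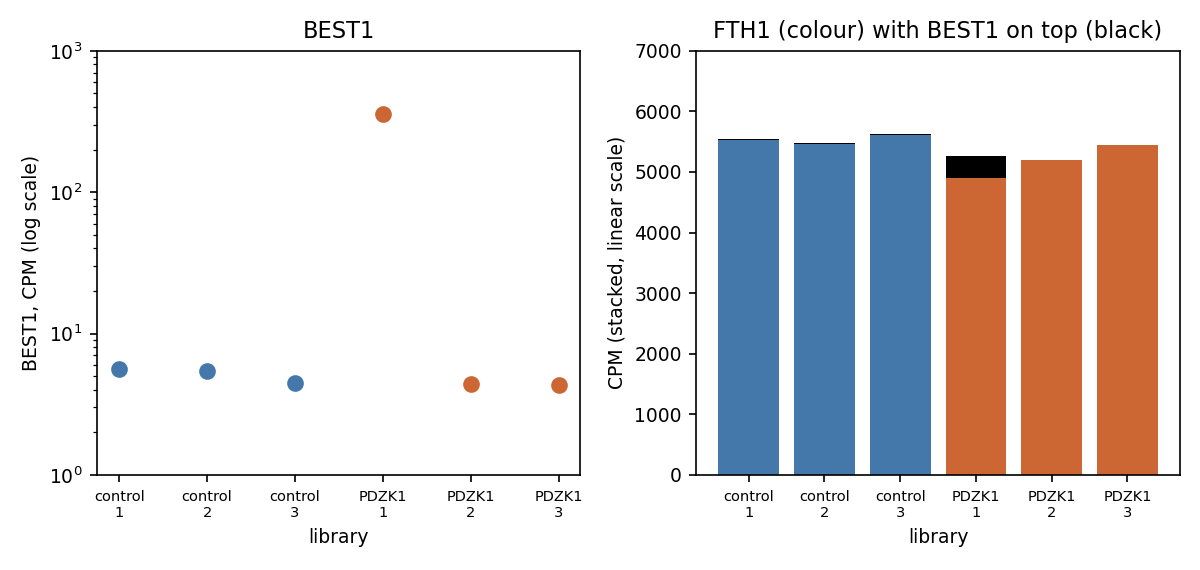
Left, BEST1 in CPM (log scale) in each of the 6 libraries. Right, FTH1 in CPM (coloured bars from 0) with BEST1 stacked on top in black, control libraries in blue and PDZK1 libraries in orange. BEST1 is at 358 CPM in PDZK1 replicate 1 and at 4.32 to 5.60 CPM elsewhere, and the stacked sums run from 5194 to 5622 CPM.

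Over the members, 9 of 10 could be tested, and none passed an adjusted p under 0.05, against 3.83% of all tested genes (edgeR). Of the 9, 1 had an unadjusted p under 0.05 in edgeR, beside 17.5% of all tested genes. DESeq2 called 0 of the members, beside 793 of 13645 tested genes. Point estimates were above 0 for 6 members, that of BEST1 through PDZK1 replicate 1 alone. The median log2 fold change of the 9 was 0.034, beside -0.00025 over all tested genes, and it was -0.093 without PDZK1 replicate 1, -0.061 without control replicate 2 and 0.15 without control replicate 3. The CPM of the groups overlapped in all 9, while they did not overlap in 23.9% of all tested genes. For 6 members (RLBP1, MITF, OTX2, RDH5, RDH11 and SOX9) the 95% interval lay within 1.5-fold on both sides, and for PMEL, TYRP1 and BEST1 it did not. RLBP1, with 95 to 166 counts per library, was within it only narrowly (interval -0.40 to 0.58). For PMEL and TYRP1, with 30 to 96 counts per library, the intervals still include changes of that size. In bulk libraries, fewer cells that express a gene and less RNA per cell cannot be told apart.

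**Figure D3:**
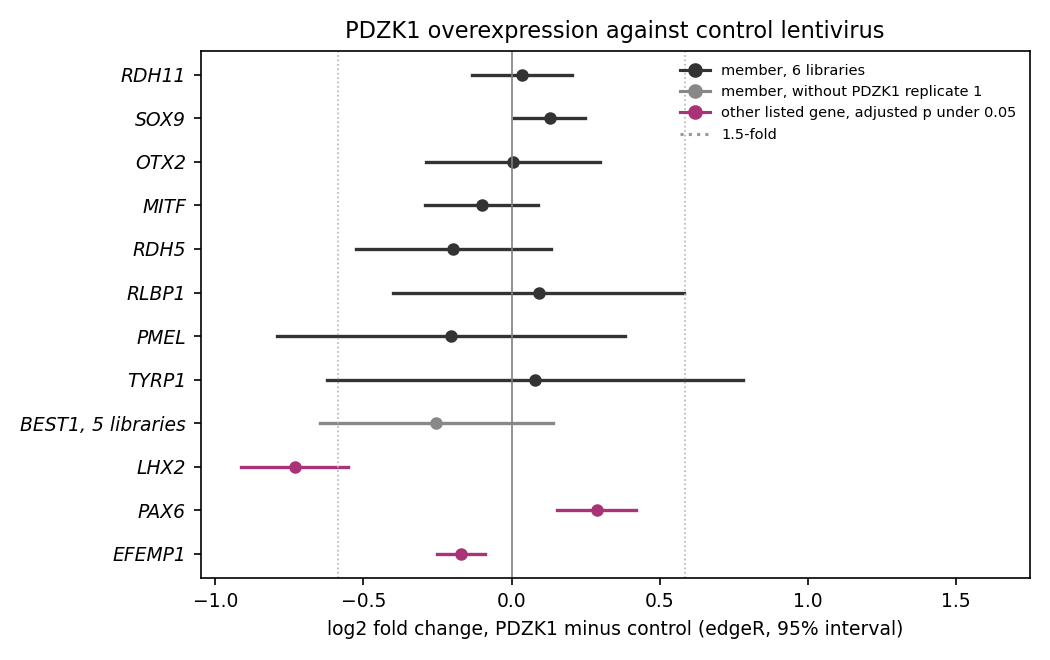
Log2 fold change of PDZK1 over control libraries (horizontal axis, edgeR) with 95% intervals, for 8 members over 6 libraries (black), BEST1 without PDZK1 replicate 1 (grey) and 3 other listed genes past the adjusted threshold (purple). Dotted lines mark 1.5-fold. The intervals of the members include 0 except that of SOX9 (0.0092 to 0.25), and LHX2 lies at -0.73.

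Presence also varied widely among the other genes of retinoid handling. Of 18 listed genes, members included, 9 had a mean of at least 1 FPKM, 3 had 0 counts everywhere (RPE65, RBP3 and TTR) and 1 more, RGR, stayed within 3 counts. The highest were RDH11, RETSAT, the retinol saturase (42.1 FPKM over 6 libraries), and RDH10, an all-trans retinol dehydrogenase (37.5 FPKM). LRAT, the acyltransferase that makes the substrate of RPE65, was low, with 78, 66 and 68 counts in the control and 31, 65 and 32 counts in the PDZK1 libraries. Its groups did not overlap in CPM, as in 23.9% of all tested genes, with PDZK1 replicate 2 the closest to the controls. The log2 fold change of -0.82 (SE 0.31) was not past the threshold (edgeR adjusted p 0.2). In all, 11 of the 18 were tested, with a median log2 fold change of -0.061. None passed in either direction in edgeR, beside 3.83% of all tested genes, and none in DESeq2, beside 793 of 13645. In edgeR, 2 were at an unadjusted p under 0.05, beside 17.5% of all tested genes.

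Of 13 pigment and melanosome genes, 6 had a mean of at least 1 FPKM and 3 lay within 3 counts in every library, among them TYR, the tyrosinase that starts melanin synthesis (at most 2 counts), and OCA2 and TRPM1 at 0. The highest were GPNMB (556 FPKM), RAB32 (141 FPKM) and GPR143, a melanosomal receptor (62.5 FPKM). Of 8 tested, none passed in edgeR, beside 3.83% of all tested genes, and the median log2 fold change was -0.062. In edgeR, 1 was at an unadjusted p under 0.05, beside 17.5% of all tested genes. GPNMB, a melanosomal glycoprotein, had a log2 fold change of -0.19 with an edgeR adjusted p of 0.0929, and DESeq2 called it (adjusted p 0.0167).

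Changes past the threshold were found among other transcription factors of the eye. Of 17 transcription factors of the eye field and RPE, 11 had a mean of at least 1 FPKM, and CRX, a photoreceptor factor, SOX2, a neural stem cell factor, and SIX6 had 0 counts everywhere. The highest were NR2F2 (71.3 FPKM), TFE3 (38.1 FPKM) and SOX9 (24.1 FPKM). Of 13 tested, 1 rose and 1 fell, beside 1.41% and 2.41% of all tested genes, and the median log2 fold change was 0.0094.

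LHX2, a LIM-homeodomain factor of the optic vesicle that is needed for MITF expression in the early RPE, fell. It had 989, 975 and 908 counts in the control and 562, 701 and 579 counts in the PDZK1 libraries. All control values lay above all PDZK1 values. LHX2 was 31.7 ± 1.15 CPM in control and 19.1 ± 2.05 CPM in PDZK1 libraries (SD, n = 3 each), with a log2 fold change of -0.73 (SE 0.081, 95% interval -0.91 to -0.55, edgeR adjusted p 0.00129). It was past the threshold in all 19 alternatives computed.

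PAX6, the paired-box factor of the eye field, rose. It had 1799, 1530 and 1493 counts in the control and 2072, 2043 and 2139 counts in the PDZK1 libraries, without overlap in CPM. PAX6 was 53.1 ± 3.20 CPM in control and 64.8 ± 2.56 CPM in PDZK1 libraries, with a log2 fold change of 0.29 (SE 0.059, 95% interval 0.16 to 0.42, edgeR adjusted p 0.0292). It was not past the threshold in 8 of 19 alternatives, among them the fits without control replicate 2 (adjusted p 0.11), PDZK1 replicate 1 (0.114), PDZK1 replicate 2 (0.0505) and PDZK1 replicate 3 (0.127), and with the replicate number as a block (0.0682). RAX, the retinal homeobox factor, and NR2F1 also had groups that did not overlap. Their log2 fold changes of -0.31 and 0.20 were not past the threshold (edgeR adjusted p 0.102 and 0.0767), and DESeq2 called NR2F1 (adjusted p 0.0421). Groups did not overlap in 4 of 13 tested factors, beside 23.9% of all tested genes.

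**Figure D4:**
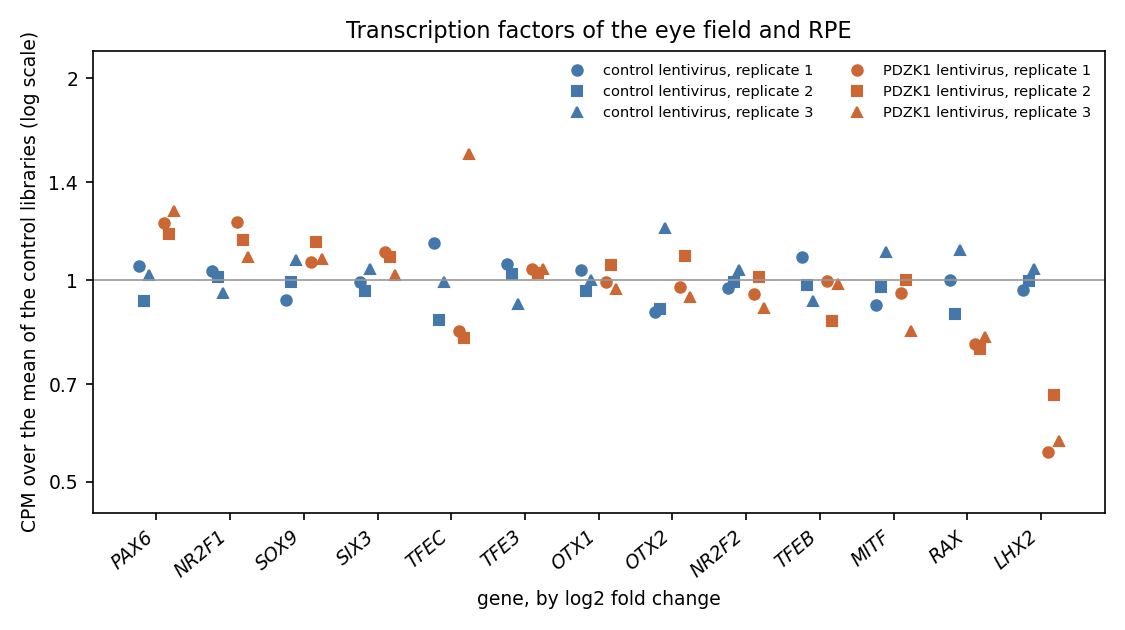
CPM of 13 tested transcription factors divided by the mean of the 3 control libraries (vertical axis, log scale), in control (blue) and PDZK1 (orange) libraries, ordered by log2 fold change. The PDZK1 libraries lie above the control libraries in PAX6 and NR2F1 and below them in RAX and LHX2, and the groups overlap in OTX2, MITF and SOX9. Among all tested genes, groups did not overlap in 23.9%.

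The label of the cell line was checked against markers of the RPE and of other cells. Of 7 defining RPE genes, 2 (RLBP1 and BEST1) had a mean of at least 1 FPKM. Outside PDZK1 replicate 1, BEST1 lay at 0.940 to 1.41 FPKM, and it shares exonic bases with FTH1. RLBP1 is also on the Müller glia list. Another 2 (RPE65 and TYR) lay within 3 counts in every library, beside regulators that were all present. Of 8 photoreceptor genes, PDE6B alone reached 1 FPKM (5.94), and GNAT1, the rod transducin subunit, had 0 counts. Of 6 melanocyte genes none reached 1 FPKM, and of 5 immune genes 3, PTPRC among them, had 0 counts. Of 8 fibroblast or mesenchymal genes, 4 had 0 counts in every library (COL1A2, THY1, LUM and DCN) and 2 reached 1 FPKM, FN1 (96.1) and PDGFRB, a platelet-derived growth factor receptor (12.4). The summed level of the list was 80.3 to 98.5 FPKM in the control and 109.95 to 137.2 FPKM in the PDZK1 libraries. The groups did not overlap in that sum, most of which was FN1, fibronectin, and the sum itself was not tested. The 3 tested genes of the list, FN1, COL1A1 and PDGFRB, had log2 fold changes of 0.50, 0.53 and 0.20. None passed the threshold (edgeR adjusted p 0.141, 0.109 and 0.155), beside 3.83% of all tested genes. All 3 were at an unadjusted p under 0.05 in edgeR, against 17.5% of all tested genes. In CPM the groups did not overlap in FN1 and COL1A1, beside 23.9% of all tested genes, and they overlapped in PDGFRB. The part of this list in the results for LHX2 and PAX6 was not tested.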

How the data were processed

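The authors deposited 1 table of estimated counts (whole numbers per gene, not scaled for depth) and 1 table of FPKM for ARPE-19 libraries. The VAHTS Universal kit was used to build libraries. The submitters' processing notes name fastp 0.20.1, HISAT2 2.2.1 and GRCh38. The counting program and strandedness are not given in the sources used here, so how reads of overlapping genes were split is unknown. Another 3 columns of per-sample values in each table fit no label of the 6 samples and stayed unused. The 853 assembled loci were left out.

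Counts were tested with edgeR 4.0.16 in R 4.3.3 (filterByExpr, TMM, robust quasi-likelihood fit, no covariates, Benjamini-Hochberg over 13645 genes). Intervals are 95% intervals of the model, and the code was tested on simulated data. The alternatives used DESeq2 1.42.0, limma 3.58.1 (voom, or log2 FPKM with a pseudocount of 1 or 0.1), other scalings and filters, a replicate block and each library left out. No 2 libraries of a group were repeats of each other within sampling noise (chi-square per degree of freedom 6.55 to 18.8). Total counts of 27970618 to 32804567 set the depth, and limits at 0 counts are 3 counts. The members, the lists and the markers were chosen with earlier results of these data known. All members were named, with listed genes past the threshold, the 3 highest of each list, genes that overlap a member and the genes most like a member. Other genes were chosen after their values were seen. All 115 list genes matched, NHERF1 by an older symbol. Some listed genes are not reported here by name. Positions are from GENCODE release 29.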

Additional observations from a re-analysis of the deposited data

How the results depend on the processing

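The summed BEST1 and FTH1 counts and the median in place of the mean were chosen after seeing the data. The number of members past the threshold was 0 except without control replicate 3, where it was 1 (SOX9, 0.18). Without that library 875 of 13844 tested genes passed, against 522 of 13645 with all 6 libraries. The number of members ran from 0 to 1 when libraries were left out in turn. PMEL, MITF and RDH5 kept their direction and their side of the threshold in all 19 alternatives, and PDZK1 and LHX2 likewise, but sizes moved with libraries left out in turn (PMEL -0.42 to -0.069, MITF -0.16 to -0.025, RDH5 -0.30 to -0.086). BEST1, at 4.55, was -0.25 without PDZK1 replicate 1, 1.86 with limma-voom, 1.61 and 1.78 on log2 FPKM with pseudocounts of 1 and 0.1, and 2.12 with the replicate block. The sum of BEST1 and FTH1 was at -0.065. OTX2 was -0.021 on log2 FPKM with a pseudocount of 1 (with or without a filter), -0.021 with 0.1, and -0.068 to 0.15 with libraries left out in turn. RLBP1 ran from -0.12 to 0.24, TYRP1 from -0.13 to 0.39, RDH11 from -0.047 to 0.085, and SOX9 from 0.082 to 0.18 with libraries left out in turn, and BEST1 from -0.25 to 5.12. The cause was not tested.

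Of 45 other listed genes tested, 3 (6.67%, beside 3.83% of all tested genes) were past the threshold. DESeq2 called 7, beside 793 of all 13645 tested genes. The 3 fits on FPKM and the fit with the replicate block each called 1 (LHX2). Leaving out libraries in turn gave 1 to 8, the 8 without control replicate 3, where 875 of 13844 tested genes were called. EFEMP1 was past the threshold in 10 of 19 alternatives and PAX6 in 11. The count of all genes was 522, against 793 with DESeq2, 191, 187 and 184 on log2 FPKM with pseudocounts of 1, 0.1 and 1 without a filter, 163 with the replicate block, and 181 (without PDZK1 replicate 1) to 875 (without control replicate 3) with libraries left out in turn. Deviations of same-numbered libraries from their group means correlated at -0.046, -0.056 and -0.14. The labels do not say whether same-numbered libraries shared a culture or batch, and this was not tested. The block changed the calls of PAX6 (edgeR adjusted p 0.0682) and EFEMP1 (0.143) and of no member. At a mean of at least 5 FPKM, 5 members counted as present in place of 8, BEST1 among them through PDZK1 replicate 1. At a mean of at least 1 FPKM, the number was 7 without control replicate 2, control replicate 3 or PDZK1 replicate 3. With at least 1 FPKM asked of every library it was 6. Low counts limit PMEL, TYRP1 and LRAT.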

Other observations

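Transport genes of the RPE included some of the most abundant transcripts of the lists. Of 14 channel and transport genes, 10 had a mean of at least 1 FPKM. The highest were BSG, the chaperone of lactate transporters (622 FPKM), NHERF1, a PDZ scaffold of apical microvilli from the same family as PDZK1 (322 FPKM), and EZR, the ezrin that links microvilli to actin (256 FPKM). KCNJ13, a potassium channel of the apical RPE membrane, had 5, 7 and 4 counts with PDZK1 and 0 in each of the 3 controls (exact permutation p 0.1, two-sided, the smallest that 3 against 3 can give). A count of 0 allows up to 3 counts, so these values lie close to the floor, and edgeR did not test KCNJ13. The neuronal gene RBFOX3, also below the count filter, went the other way, with 6, 7 and 8 counts in the control and 1, 0 and 0 in the PDZK1 libraries. Of 13 tested, none passed in edgeR, beside 3.83% of all tested genes, and none in DESeq2, beside 793 of 13645. Their median log2 fold change was 0.049. In edgeR, 1 was at an unadjusted p under 0.05, beside 17.5% of all tested genes. NHERF1 had a log2 fold change of -0.11 (edgeR adjusted p 0.33), and -0.17 without control replicate 3 (adjusted p 0.0165).

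Of 13 secreted and surface genes of the RPE, 6 had a mean of at least 1 FPKM. The highest were ITGB5, the integrin subunit that binds shed outer segments (162 FPKM), CST3, cystatin C (129 FPKM), and EFEMP1, a fibulin of the basement membrane (104 FPKM). EFEMP1 fell, with 10299, 10264 and 9093 counts in the control and 9457, 9237 and 9331 in the PDZK1 libraries and no overlap in CPM (log2 fold change -0.17, SE 0.036, edgeR adjusted p 0.0303). It was not past the threshold without control replicate 1 (adjusted p 0.0547), control replicate 2 (0.138), PDZK1 replicate 1 (0.11), PDZK1 replicate 2 (0.107) or PDZK1 replicate 3 (0.107). SERPINF1, which encodes the secreted factor PEDF, and the phagocytosis receptor MERTK were low, at 12 to 40 and 16 to 30 counts per library. CDH1 stayed at 0 to 10 counts. Of 9 tested, 0 rose and 1 fell past the threshold (4 at an unadjusted p under 0.05), beside 2.41% lower and 17.5% at an unadjusted p under 0.05 among all tested genes, with a median log2 fold change of -0.17, and DESeq2 also called TIMP3 (-0.25) and ITGB5 (0.13). Among further marker lists, none of the tested genes passed the threshold in edgeR, beside 3.83% of all tested genes. Of 7 Müller glia genes 4 reached 1 FPKM, VIM (2134 FPKM) the highest, with SOX9 and GLUL (20.3 FPKM) next, while SLC1A3 and AQP4 had 0 counts. None of 5 endothelial genes reached 1 FPKM, KDR (0.666), VWF (0.0435) and TEK (0.0204) being the highest. Of 5 neuronal genes SYT1 alone did (4.06 FPKM), followed by SNAP25 (0.188) and RBFOX3 (0.0501). The highest melanocyte genes were MLANA (0.188 FPKM), ERBB3 (0.115) and EDNRB (0.110), those of photoreceptors after PDE6B were NRL (0.380) and ARR3 (0.122), and those of immune cells were CD14 (0.0240) and ITGAM (0.00768). MITF, PMEL and SOX9 also overlap RN7SL418P, AC025162.1 and SOX9-AS1, with 0 shared exonic bases.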
